A study of Rattus norvegicus with 8 samples.

Results

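The TNF superfamily ligands are small secreted or membrane-held proteins, related to tumour necrosis factor, that bind receptors of the TNF receptor superfamily on neighbouring cells. The 8 ligand genes described here were Tnfsf9, Tnfsf10, Tnfsf11, Tnfsf12, Tnfsf13, Tnfsf15, Tnf and Lta. They were found among the 45598 gene probes of a rat array by matching each probe's accession, without its version, to the RefSeq transcripts of the 8 symbols, and all 8 genes were found, with 9 probes (2 for Tnf). In all, 16581 gene symbols had a probe. The set was chosen by measured values, the processed signals of Klf4 against control arrays, because Tnfsf9 was among the largest rises after Klf4 overexpression. Its difference between the groups is therefore given as a description, with no test. The other 7 genes belong to the set by family and not by their values.

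Retinas of Lister hooded rats, taken on postnatal day 0, received by electroporation in vitro either a control plasmid (control group, 4 arrays) or one that encodes Klf4, a zinc-finger transcription factor (Klf4 group, 4 arrays). Both groups then had 39 hours in explant culture, dissociation, and sorting of GFP-positive (transfected) cells, from which total RNA was taken. The labels used here name no plasmid promoter. They also do not tell if each array had its own animal or electroporation, and the p-values therefore reflect only how far these samples spread, which may be technical. Replicates are numbered 2 to 5 in each group, as in the titles.

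Ligands of this family mostly act as trimers. Binding clusters the receptors, whose cytoplasmic tails recruit TRAF or death-domain adaptor proteins, and these lead to NF-kB and MAP kinase signalling or to cell death. Many of the ligands are best known from immune cells: Tnf and Lta from macrophages and lymphocytes, and Tnfsf9 (4-1BB ligand) from antigen-presenting cells, where it costimulates T cells through Tnfrsf9. Others have wider roles, such as Tnfsf11 (RANKL) in osteoclast formation. In the retina, Tnf is studied mainly as a product of microglia and glia in injury.

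Tnf, Lta and Ltb (lymphotoxin beta, a family ligand outside the 8) are next to each other on chromosome 20, in the order Lta, Tnf, Ltb in the RefSeq annotation of assembly GRCr8. Since Ltb was called higher with Klf4, Lta was not and Tnf was dim, as given further on, the 250 bases before each start are shown. Capitals mark matches, on either strand, to the KLF core GGGTG and an NF-kB form (GGGA and TTCC with any 2 bases between). The windows, from RefSeq and written 5′ to 3′ on the gene's own strand, are chr20:3623277-3623526 (Lta, plus strand), chr20:3626435-3626684 (Tnf, plus strand) and chr20:3634055-3634304 (Ltb, minus strand).
Lta: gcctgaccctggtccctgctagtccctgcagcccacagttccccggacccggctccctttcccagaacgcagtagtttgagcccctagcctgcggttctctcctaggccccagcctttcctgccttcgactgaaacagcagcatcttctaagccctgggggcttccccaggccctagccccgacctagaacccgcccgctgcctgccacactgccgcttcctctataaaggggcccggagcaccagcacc
Tnf: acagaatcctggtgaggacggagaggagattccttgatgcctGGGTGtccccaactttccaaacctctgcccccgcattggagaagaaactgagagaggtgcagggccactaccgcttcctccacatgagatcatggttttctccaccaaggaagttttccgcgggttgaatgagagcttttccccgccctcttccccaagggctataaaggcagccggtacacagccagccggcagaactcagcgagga
Ltb: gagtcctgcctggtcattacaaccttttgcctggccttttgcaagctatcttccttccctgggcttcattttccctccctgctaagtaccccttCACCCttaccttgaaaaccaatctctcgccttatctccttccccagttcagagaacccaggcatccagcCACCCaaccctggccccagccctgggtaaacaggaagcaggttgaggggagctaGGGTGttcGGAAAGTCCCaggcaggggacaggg
The window of Ltb held 3 matches to GGGTG, starting at -156, -87 and -33 from the gene's start, and 1 to the NF-kB form at -25. That of Tnf held 1 match to GGGTG, at -208, and that of Lta none that lies wholly before the start. Over 300 bases (250 before and 50 after the start), 54.9% of the 33469 rat promoters in the table held GGGTG and 1.30% the NF-kB form. Promoters were matched for 6 of the 8 ligand genes (Tnfsf10, Tnfsf11, Tnfsf13, Tnfsf15, Tnf and Lta), of which 4 held GGGTG, 0 the NF-kB form, 0 the longer KLF form GGGTGNGGC (4.56% of all) and 0 the AP-1 form TGANTCA (7.33% of all). Tnfsf9 and Tnfsf12 had no entry. A match of letters is a description and not a binding site. Looser spellings of the NF-kB form were not searched, so a window without a match may still hold an NF-kB site.

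Signals are given as log2 of the software's processed intensity less the array's 75th percentile, so 0 is the brightness of that percentile, and are called normalised log2 signals. Each probe has its own brightness, so levels are compared between groups for 1 probe and not between genes. The 75th percentile was 732 to 1718 intensity units over the arrays, and 72.1% to 86.5% of gene spots were well above background, as flagged by the scanner software. The 2 arrays numbered 5 came from a second scan, and the 2 arrays numbered 4 lay outside the software's quality limits. The slide columns held 1 group each, so a column effect and the group cannot be told apart. The probe for Klf4 did not separate the groups (control -3.27 ± 0.62, Klf4 -3.0 ± 0.86, SD, n = 4 each; log2 difference 0.27, SE 0.46, adjusted p = 0.916). Its position with respect to the inserted Klf4 is unknown here, and it is no check of the labels. All 12 retinal markers examined, were well above background on all 8 arrays; the neuronal genes Tubb3, Stmn2 and Elavl3 were higher with Klf4 and the photoreceptor genes Crx and Rbp3 lower.

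Tnfsf9 went from near background to a bright signal. Its processed intensity was 16.5, 134, 7.36 and 9.58 on control replicates 2, 3, 4 and 5, and 9171, 4775, 2373 and 3835 on the Klf4 replicates of the same numbers. Every Klf4 array was far above every control array, and among the controls replicate 3 stood well above the others. The normalised log2 signals were -6.49, -3.68, -7.39 and -6.25 in the controls (mean -5.96 ± 1.59, SD, n = 4) and 2.55, 1.78, 0.69 and 2.28 with Klf4 (1.83 ± 0.82, SD, n = 4). The difference of 7.78 was rank 5 of the 960 genes and features higher with Klf4, between unnamed features at 7.97 and 7.73. All 4 Klf4 arrays but only 1 control array, replicate 3, had the probe well above background, so the size of the difference rests on dim control signals. With each dim control array set at the lowest signal that counted as well above background there, the difference was 6.99, or 127-fold. It was 7.53 within the first scan and 8.54 within the second, 8.54 without control replicate 3, and 5.44 with another background correction (normexp). In these sorted bulk samples, more cells with the transcript and more transcript per cell cannot be told apart.

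**Figure D1:**
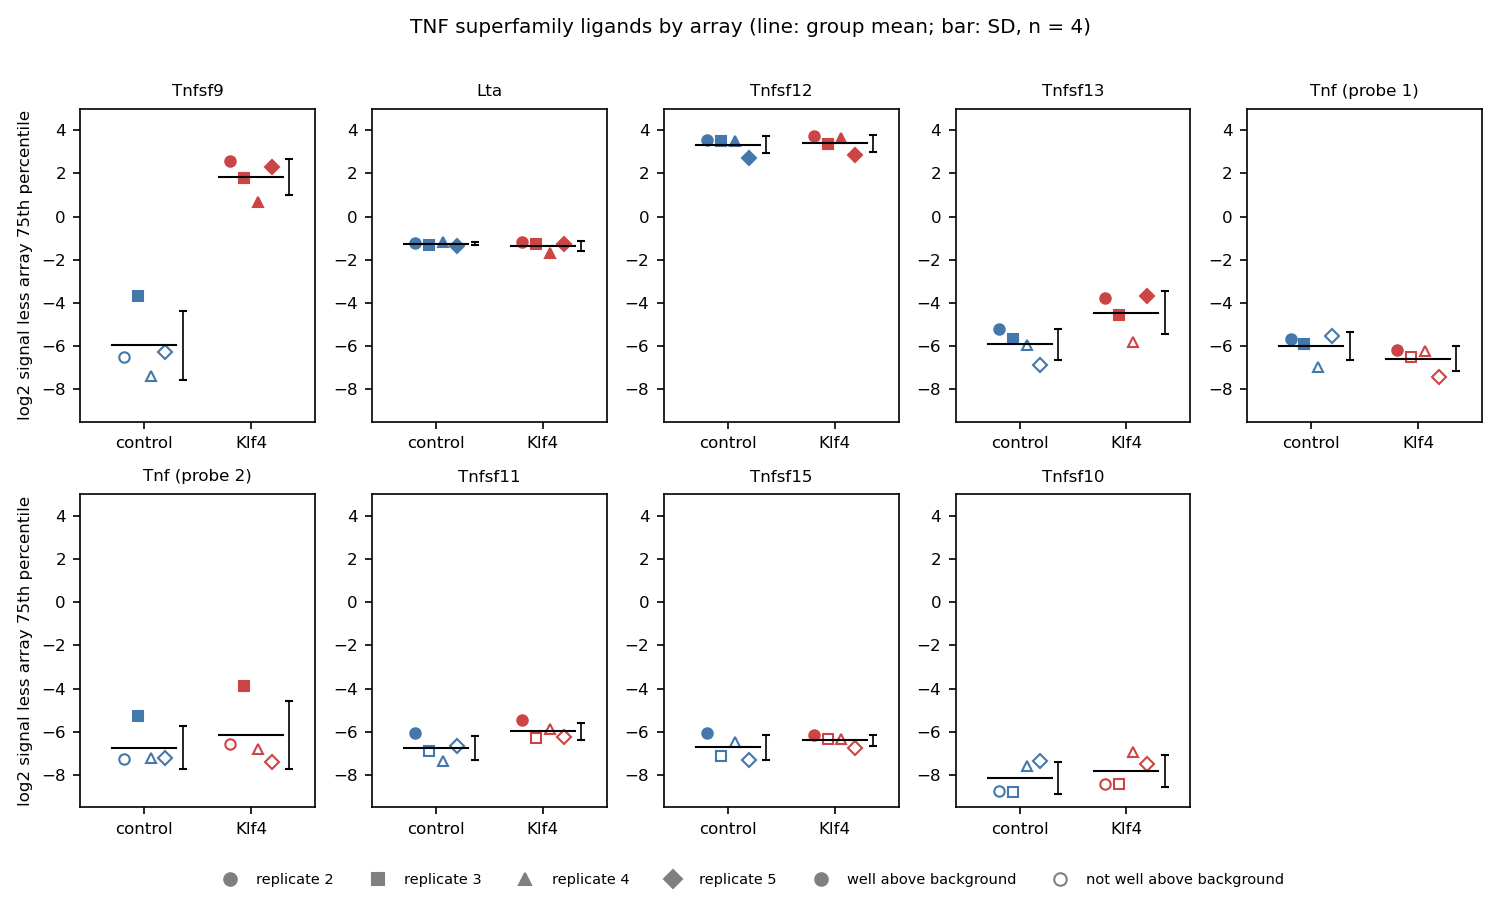
Normalised log2 signal (y axis, log2 intensity less the array's 75th percentile) of the 9 probes of the 8 ligand genes on the control (blue) and Klf4 (red) arrays. Symbols stand for replicate numbers, filled where the probe was well above background, lines are group means and bars SDs over 4 arrays; only Tnfsf9 has groups that do not overlap, and Lta and Tnfsf12 are well above background on every array.

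Of the 8 ligands, 4 passed the filter on dim probes (3 or more of a group's 4 arrays well above background, in either group): Tnfsf9, Tnfsf12, Tnfsf13 and Lta. Tnfsf9 and Tnfsf13 passed only through the Klf4 group. In the fit over all 30009 genes and features, 1 of these 4 was called higher with Klf4 and 0 lower, against 3.20% of all features called higher and 0.463% called lower; as the 1 is Tnfsf9, which chose the set, nothing is read from that count. Of the other 3, 1, Tnfsf13, had an unadjusted limma p under 0.05.

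Tnfsf13 encodes APRIL, which binds the TNF superfamily receptors Tnfrsf13b and Tnfrsf17 and is cut from its precursor inside the cell. Its normalised log2 signals were -5.18, -5.67, -5.95 and -6.85 on control replicates 2 to 5 and -3.75, -4.56, -5.82 and -3.69 on the Klf4 replicates. Klf4 replicates 2, 3 and 5 lay above every control, while Klf4 replicate 4 lay within the control range, so the groups overlapped. The log2 difference was 1.46 (SE 0.52, 95% interval 0.27 to 2.65), from -5.91 ± 0.70 to -4.45 ± 1.0 (SD, n = 4 each), and did not pass (adjusted p = 0.267). The probe was well above background on 2 control and 3 Klf4 arrays. Without Klf4 replicate 4 the difference was 1.92 and passed (adjusted p = 0.0409; 0.0409 to 0.560 over 18 alternatives). It was 0.89 in the first scan, 3.16 in the second, where the control value was the lowest of all 8, and 0.49 with normexp.

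Tnfsf12 encodes TWEAK, whose receptor is Tnfrsf12a, and lies beside Tnfsf13 on chromosome 10 in the same annotation. It was bright on every array, at 3.55, 3.49, 3.49 and 2.72 on control replicates 2 to 5 and 3.74, 3.36, 3.61 and 2.84 with Klf4. Replicate 5 was the lowest in both groups, and the other 6 arrays lay within 3.36 to 3.74. The difference was 0.07 (SE 0.26, adjusted p = 0.971, 95% interval -0.51 to 0.66), 0.06 within the first scan and 0.12 within the second. The SE was 0.11 with the scan as a block, and the adjusted p 0.796. The neighbours Tnfsf12 and Tnfsf13 thus had differences of 0.07 and 1.46, and the difference between them was not tested.

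Lta encodes lymphotoxin alpha, which binds the same receptors as Tnf. It had the smallest SD of the 8 ligands in each group, at -1.22, -1.30, -1.16 and -1.34 in the controls and -1.20, -1.28, -1.69 and -1.25 with Klf4. Apart from Klf4 replicate 4, the lowest, the arrays of both groups lay within -1.34 to -1.16. The difference was -0.10 (SE 0.14, adjusted p = 0.889), with a 95% interval of -0.43 to 0.23. The probe was well above background on all 8 arrays.

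The other 4 ligands were at or near background in both groups and were not tested. Tnf, the founding member, was measured by 2 probes. The brighter, well above background on 2 control arrays and 1 Klf4 array, read between -6.94 and -5.51 in the controls and between -7.42 and -6.17 with Klf4, and the groups overlapped. The second probe was well above background on replicate 3 of each group alone, at -5.26 in the control and -3.88 with Klf4, against -7.24 on each of the other controls and -7.40 to -6.57 on the other Klf4 arrays. The 2 probes had differences of opposite sign, -0.57 and 0.58, so they give no common direction for Tnf.

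Tnfsf11 (RANKL) was well above background on replicate 2 of each group and otherwise dim, at -7.38 to -6.08 in the controls and -6.30 to -5.46 with Klf4. Tnfsf15 (TL1A, a ligand of Tnfrsf25) was likewise well above background on replicate 2 of each group, and its Klf4 values of -6.75 to -6.16 fell within the control range of -7.29 to -6.04. Tnfsf10 (TRAIL, which induces cell death through death receptors) was below that level on all 8 arrays, at -8.80 to -7.37 and -8.44 to -6.92. Tested with no filter on dim probes, these 4 genes did not pass, with adjusted p of 0.473 for Tnfsf11, 0.838 for Tnf, 0.904 for Tnfsf15 and 0.970 for Tnfsf10. At these signals a change was not measurable for Tnfsf10, and for the other 3 only 1 or 2 arrays a group gave a measured value.

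Of 10 further ligands of the family, 8 had a matched probe and 4 were tested, of which Ltb was called higher and 0 were lower (3.20% and 0.463% of all features). Ltb passed the filter on dim probes only through the Klf4 group, which favours genes higher there, so nothing is read from that count. Ltb encodes the membrane-bound partner of lymphotoxin alpha in the trimer that binds Ltbr. Its normalised log2 signals were -7.59, -6.96, -7.54 and -7.32 in the controls and -5.04, -4.92, -6.50 and -5.14 with Klf4. All 4 Klf4 arrays lay above the controls, replicate 4 by the least. The probe was under the well-above-background level throughout the controls and above it on 3 Klf4 arrays. Ltb was 1.42-fold higher when every dim control array was set at the lowest signal well above background there. Control arrays averaged -7.35 ± 0.29 and Klf4 arrays -5.40 ± 0.74 (SD, n = 4 each). In limma, Ltb was called higher by 1.95 on the log2 scale, with an SE of 0.35 and an adjusted p of 0.0175. The call was lost with normexp (log2 difference 0.44, adjusted p = 0.477), within the first scan (1.87, adjusted p = 0.13), and when Klf4 replicate 2, 3 or 5 or control replicate 2 or 4 was dropped (adjusted p 0.0568 to 0.0689; 0.00051 to 0.477 over the alternatives); the second scan gave 2.18. Of the 3 neighbours on chromosome 20, then, Ltb was called higher, though the call was lost in 7 of the 18 alternatives. Lta was measured on every array with a difference of -0.10, and Tnf was mostly at background. The difference between the neighbours was not tested.

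Tnfsf9 also has family neighbours. On chromosome 9 it is followed by Brcc3 and the family ligands Cd70 and Tnfsf14. Cd70, the ligand of Cd27, was dim (below the well-above-background level) on all 8 arrays. Tnfsf14 (LIGHT, a ligand of Ltbr and Tnfrsf14) was well above background on 3 arrays of each group and had a difference of -0.07 (SE 0.30, adjusted p = 0.977, 95% interval -0.76 to 0.62). Its sign turned in 5 of the alternatives. The remaining tested ligands were the death ligand Faslg, at 0.37 (SE 0.41, adjusted p = 0.833), and the ectodysplasin gene Eda, at 0.15 (SE 0.13, adjusted p = 0.779) with its brighter probe and -0.13 with its other.

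The receptors of the 8 ligands did not pass where they could be tested. Tnfrsf9, the receptor of Tnfsf9, was well above background on 2 control arrays and 1 Klf4 array and was not tested. Its normalised log2 signals were -5.90, -5.60, -6.67 and -6.56 in the controls and -5.05, -6.44, -5.58 and -5.48 with Klf4. The groups overlapped. Of the 12 receptors named for the members, 5 were tested, 5 were too dim and 2, Tnfrsf10b and Tnfrsf13c, had no matched probe.

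Tnfrsf25, the death-domain receptor of Tnfsf15, came nearest. It read 0.61, 0.60, 0.45 and -0.49 in the controls and 1.28, 0.94, 1.02 and 0.72 with Klf4. The groups did not overlap, control replicate 5 being the lowest, but the difference of 0.70 did not pass (SE 0.26, adjusted p = 0.311, 95% interval 0.09 to 1.30; 3.66% of all features were called in either direction). The Tnf receptor Tnfrsf1a differed by 0.42 (SE 0.24, adjusted p = 0.611), the Tnfsf12 receptor Tnfrsf12a by -0.42 (SE 0.36, adjusted p = 0.769), the lymphotoxin receptor Ltbr by -0.07 (SE 0.14, adjusted p = 0.926) and the Tnfsf13 receptor Tnfrsf13b by -0.03 (SE 0.18, adjusted p = 0.985). These 4 were well above background on all 8 arrays, and their groups overlapped. The other Tnf receptor, Tnfrsf1b, was so on 2 arrays of each group, the Tnfsf11 receptor Tnfrsf11a on 1 control array, and its decoy receptor Tnfrsf11b and the Tnfsf13 receptor Tnfrsf17 on 0.

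**Figure D2:**
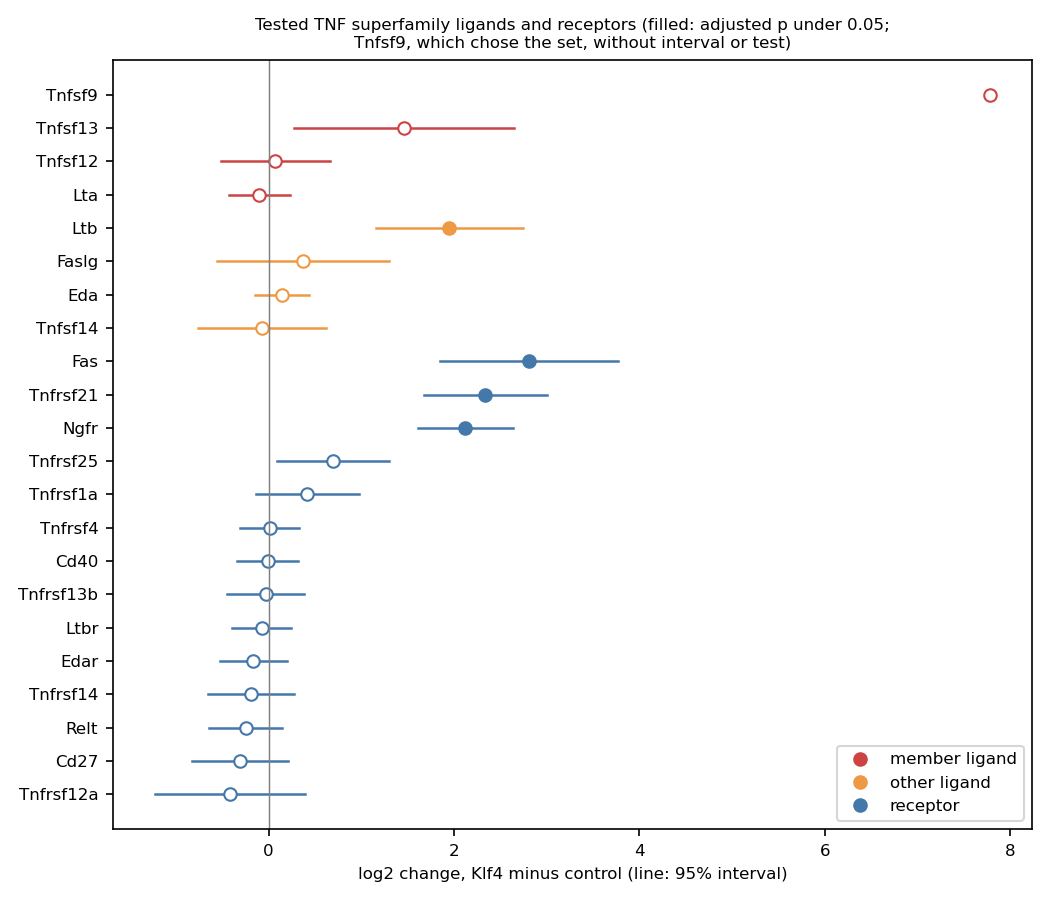
Log2 change, Klf4 minus control (x axis), of the 22 tested genes of the ligand and receptor lists, with 95% intervals as lines and filled points where the adjusted p was under 0.05. Tnfsf9, at 7.78, chose the set and is drawn with no interval or test; Ltb, Fas, Tnfrsf21 and Ngfr are the filled points, between 1.95 and 2.81.

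Over the whole receptor list of 25 genes, 22 had a matched probe and 14 were tested, of which 3 were higher, 0 lower and 11 did not pass (3.20% and 0.463% of all features; 4 of the 14 had an unadjusted p under 0.05, the 3 called and Tnfrsf25). The median log2 change over the 14 was -0.02, beside -0.07 over all features. The 3 were Fas, Ngfr and Tnfrsf21. Fas passed the filter only through the Klf4 group, and with no filter on dim probes 2 of 22 receptors were called higher. Of the 8 genes that failed the filter, Tnfrsf18 (GITR), named here after its values were seen, read -8.38, -8.91, -7.62 and -7.39 in the controls and -4.79, -6.53, -6.73 and -5.49 with Klf4. Its groups did not overlap, but it was well above background on 1 Klf4 array and no control array and was not tested.

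Ngfr, the p75 neurotrophin receptor, read 1.39, 1.54, 1.35 and 1.21 in the controls and 3.91, 3.53, 2.86 and 3.70 with Klf4, with no overlap. It rose by 2.12 (SE 0.22, adjusted p = 0.00114), 2.0 within the first scan and 2.49 within the second. Tnfrsf21, death receptor 6, which is studied in axon pruning, read -1.62, -1.70, -1.91 and -2.01 in the controls and 0.86, 0.38, -0.27 and 1.15 with Klf4. It rose by 2.34 (SE 0.29, adjusted p = 0.00275), 2.07 within the first scan and 3.15 within the second. Both kept their call in all 18 alternatives. Fas, the receptor of Faslg, was under the well-above-background level throughout the controls and above it on 3 Klf4 arrays, at -8.48 to -7.31 and -6.07 to -4.18. With the kept probe, Fas was called higher (log2 difference 2.81, SE 0.42, adjusted p = 0.00727). With each dim control array set at the lowest signal well above background there, it was 1.75-fold higher. Normexp ended this call (0.62, adjusted p = 0.395). Without the dim-probe filter, a brighter Fas probe that had failed it stood for the gene. That probe had a difference of 1.29 and did not pass (adjusted p = 0.188).

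Of 34 listed adaptors, kinases, NF-kB factors and processing enzymes, 26 were tested, and 3 were higher, 0 lower and 23 did not pass, against 3.20% of all features called higher and 0.463% lower. Of the 26, 4 had an unadjusted p under 0.05, the 3 called and Nfkb1; the median log2 change was -0.09, beside -0.07 over all features. Tradd, the adaptor that binds the death domain of the Tnf receptor, read -1.51, -0.80, -1.07 and -0.55 in the controls and -0.04, 0.10, -0.15 and -0.0025 with Klf4. The Klf4 arrays lay close together and above all controls. It rose by 0.96 (SE 0.21, adjusted p = 0.0400), by 1.10 within the first scan and 0.55 within the second, a call lost in 11 of the 18 alternatives (adjusted p up to 0.136). They were the array median, no filter on dim probes, the replicate number as a block, the first scan, no arrays numbered 4, and the absence of control replicate 2, 3 or 4, or of Klf4 replicate 2, 3 or 5 (0.0573 to 0.136).

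Ripk3, a kinase of necroptosis, read -3.75, -3.44, -3.68 and -3.26 in the controls and -2.78, -2.41, -2.34 and -2.60 with Klf4. It rose by 1.0 (SE 0.16, adjusted p = 0.0112), 1.12 within the first scan and 0.66 within the second, and did not pass with normexp (adjusted p = 0.0597) or when both arrays numbered 4 were dropped (adjusted p = 0.0612). Map3k5, the stress kinase ASK1, was under the well-above-background level throughout the controls (-8.73 to -7.38) and above it on 3 Klf4 arrays (-6.52 to -4.04). It passed the filter only through the Klf4 group. The log2 difference was 2.98 (SE 0.57, adjusted p = 0.0241), 2.86 within the first scan and 3.35 within the second. With each dim control array set at the lowest signal well above background there, Map3k5 was 2.15-fold higher. The call was lost in 9 alternatives. They were normexp (0.76, adjusted p = 0.241), the first scan (adjusted p = 0.131), the replicate number as a block (0.0572), and the absence of control replicate 2, 3 or 4, or of Klf4 replicate 2, 3 or 5 (0.0557 to 0.0872). The NF-kB subunit genes Nfkb1 (-0.35, adjusted p = 0.304) and Rela (-0.14, adjusted p = 0.848) did not pass, nor did the sheddase gene Adam17.

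Of 27 listed targets of NF-kB, 16 were tested, and 2 were higher, 0 lower and 14 did not pass (3.20% and 0.463% of all features), with a median log2 change of 0.01. Of the 16, 3 had an unadjusted p under 0.05, the 2 called and Nfkbie (-0.50, adjusted p = 0.207). Bcl3, an atypical inhibitor that acts with NF-kB in the nucleus, read -3.73, -2.59, -1.97 and -3.73 in the controls and 1.49, 1.36, 0.56 and 1.19 with Klf4, and rose by 4.16 (SE 0.42, adjusted p = 0.000916). A second kept probe of Bcl3 had a difference of 0.34, so the probes of this gene disagree, and their mean gave 2.25. Irf1, an interferon regulatory factor, read -0.34, -0.07, 0.27 and -0.28 in the controls and 2.11, 1.65, 1.34 and 2.22 with Klf4, and rose by 1.94 (SE 0.23, adjusted p = 0.00222), 1.75 within the first scan and 2.50 within the second. Neither gene's groups overlapped, and both kept their call in all alternatives. The feedback inhibitor Nfkbia (-0.19, SE 0.14, adjusted p = 0.719), the adhesion molecule Icam1 (-0.38, SE 0.32, adjusted p = 0.762) and Sod2 (0.11, SE 0.11, adjusted p = 0.811) did not pass. Tnfaip2, Ccl20, Cxcl1 and Il6 were dim on all 8 arrays.

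**Figure D3:**
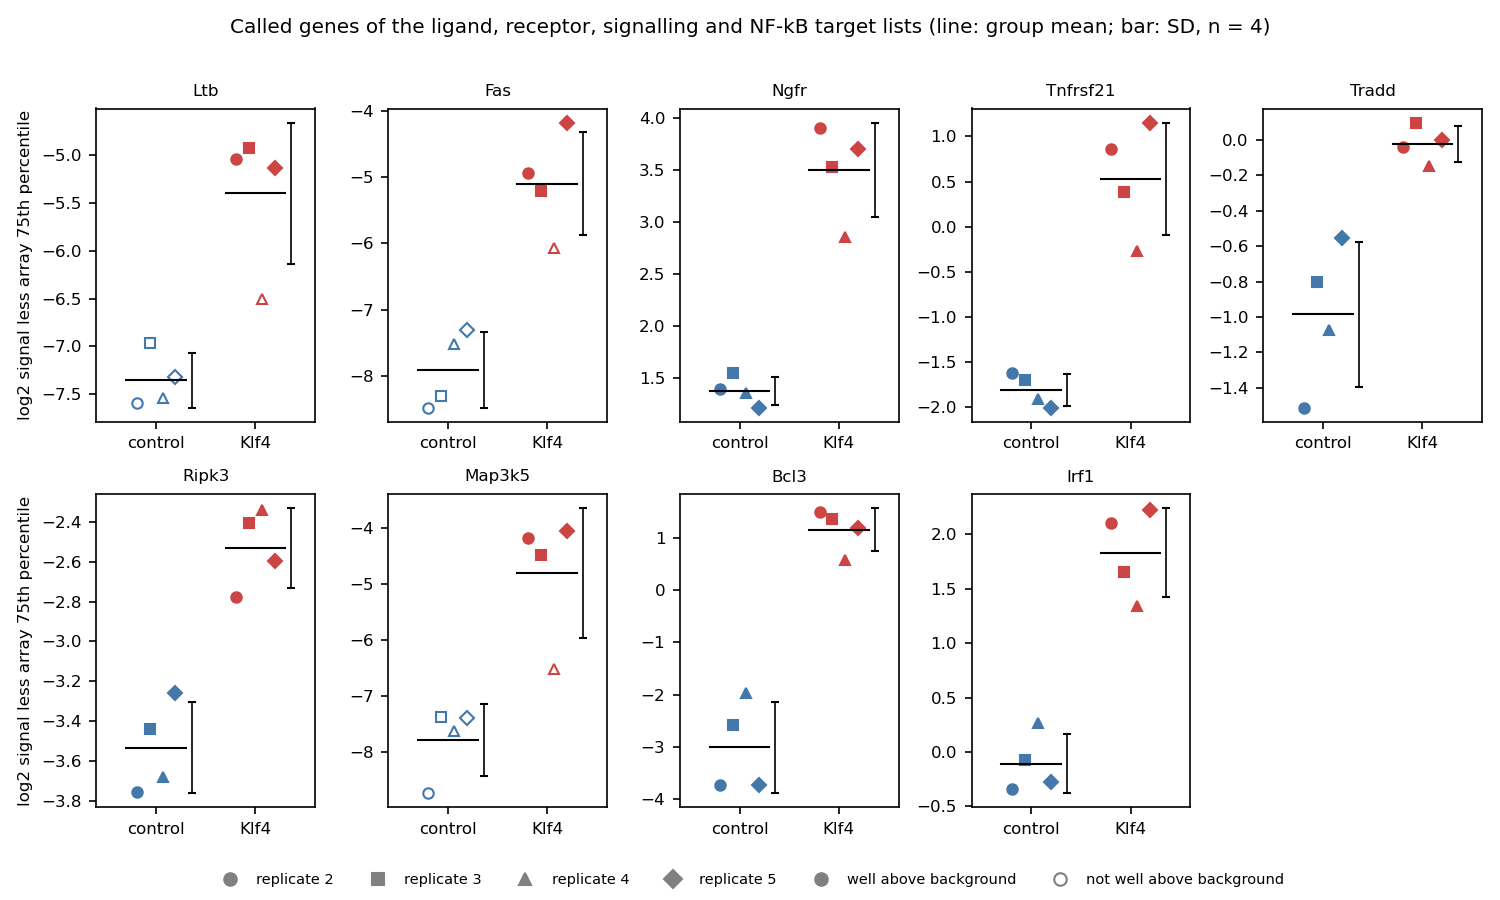
Normalised log2 signal (y axis, own scale in each panel) of the 9 called genes of the further ligand, receptor, signalling and NF-kB target lists on control (blue) and Klf4 (red) arrays. Symbols stand for replicate numbers, filled where well above background, with group means and SDs over 4 arrays; in every panel the groups do not overlap, and Klf4 replicate 4 is the lowest Klf4 array in all panels but that of Ripk3.

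Markers of other cell types that make these ligands were read beside them. Of 12 microglia and macrophage markers, 10 were tested and 1, the complement gene C1qb, was higher (by 1.04, adjusted p = 0.0243) and 0 lower (3.20% and 0.463% of all features; median log2 change 0.16). Summed levels are in units of each array's 75th percentile and cover tested markers with a value on all 8 arrays. Here they were 5.45 to 8.17 in the controls and 6.45 to 7.34 with Klf4. Cd68, tested but left out of the sum, had no value on control replicates 2 and 3 and Klf4 replicate 3. It read 0.84 and -1.93 on control replicates 4 and 5, and 1.88, 4.09 and -1.79 on Klf4 replicates 2, 4 and 5. The pan-leukocyte gene Ptprc was dim on all 8 arrays. Of 10 lymphocyte markers, 3 were tested and did not pass (limma adjusted p 0.717 to 0.985), with summed levels of 4.80 to 12.03 and 6.42 to 14.2, and Cd3e and Cd8a were dim on all 8 arrays. Of 9 endothelial markers, 5 were tested, and 2 were higher and 0 lower (3.20% and 0.463% of all features). Tek rose by 2.38 (adjusted p = 0.00161) and Esam, dim on all 4 control arrays, by 3.35 (adjusted p = 0.00995). With each dim control array set at the lowest signal well above background there, Esam was 3.52-fold higher. Cdh5 (-0.01), Kdr (0.03) and Vwf (0.13) did not pass. The summed levels, 98.8 to 118 in the controls and 93.7 to 161 with Klf4, were mostly the signal of Kdr. The part of such cells in the signals of Tnfsf9 and Ltb was not tested.

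The genes whose values over the 8 arrays, each less its own control mean, lay nearest to those of Tnfsf9 were sought among 13496 genes with complete values, by the root mean square difference on the log2 scale. Those described here are Emp1 (0.63), an epithelial membrane protein gene, Spib (0.78), an ETS transcription factor, Sertm1 (0.89) and Anxa8 (1.08), an annexin. Their differences between the groups were 8.34, 6.96, 7.42 and 9.11. Control replicate 3 was the highest control and Klf4 replicate 4 the lowest Klf4 array for all 5 genes, which the choice by likeness over the same arrays favours; the order of the other arrays differed between genes. Emp1, for example, read -8.38, -4.17, -7.48 and -7.33 in the controls and 2.04, 1.68, 0.47 and 1.83 with Klf4. For these 4 genes, 1 control array and all 4 Klf4 arrays gave a signal well above background.

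**Figure D4:**
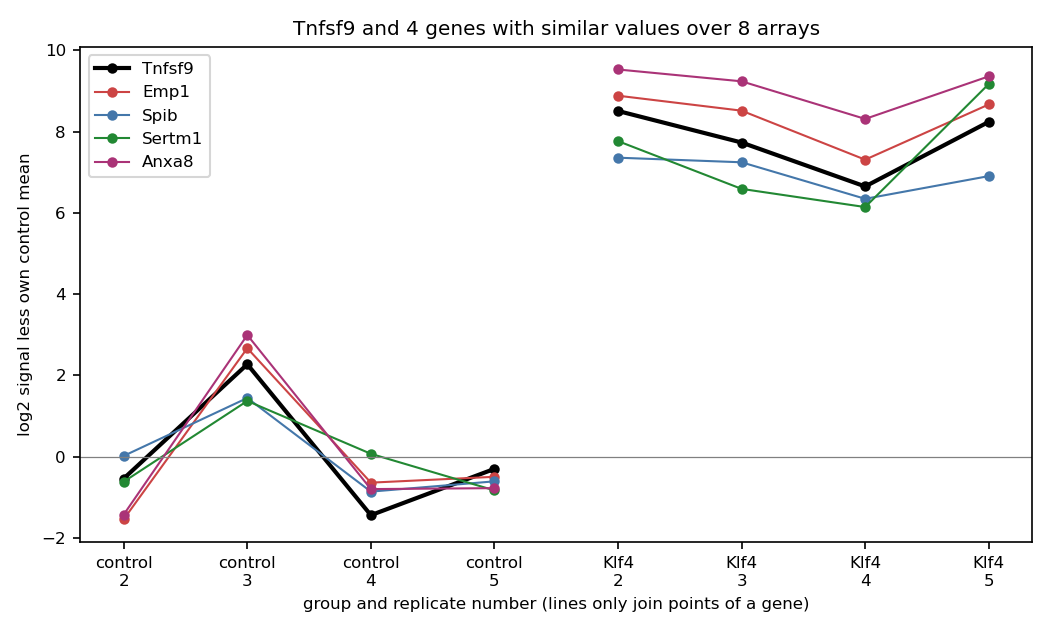
Normalised log2 signal less each gene's own control mean (y axis) of Tnfsf9 (black) and 4 genes near to it, by group and replicate number (x axis; lines only join the points of a gene). Control replicate 3 is the highest control and Klf4 replicate 4 the lowest Klf4 array for all 5 genes.

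By the same measure, the genes nearest to Tnfsf13 were Tmem119 (0.27), a membrane protein gene used as a microglial marker, Igfbp6 (0.35) and Palm3 (0.39), with differences of 1.27, 1.21 and 1.25. Nearest to Tnfsf12 were Nipa2 and Lyrm1 (0.04 each) and Or2y11 (0.07), and nearest to Lta were Dhx34 (0.04), Phykpl and Clcn7 (0.05 each).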

How the data were processed

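Per the labels' protocols and the file headers, total RNA of the sorted cells was labelled with Cy3 and hybridised to single-colour Agilent arrays on 1 slide, and spots were read with Feature Extraction 10.7.3.1. Per the file headers, that software subtracted background from each intensity and detrended it, without scaling arrays to each other. The authors also deposited a table of log2 values, made in a way the labels used here leave out; each column has the same median (7.54), its genes are not centred, and it was used as an alternative. The deposited flags (control type, outlier, well above background), unit other, are the software's own.

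After removal of control and outlier spots, the spots of each probe were averaged as log2 signals and each array's 75th percentile over gene probes subtracted. A probe counted as well above background where 50% or more of its spots were. A probe was kept where it was so on at least 3 of 4 arrays of a group, and the brightest kept probe stood for a gene. Tnfsf9, Tnfsf13, Ltb, Fas, Map3k5 and Esam, among others, passed only through the Klf4 group, which favours genes higher there. Accessions were matched to RefSeq genes of GRCr8 (21109 of 45598 probes had 1 symbol, 0 several and 24489 none); the headers name build rn4, so probes are given no coordinates, and those of the printed promoter windows are RefSeq's in GRCr8. Groups were compared with limma 3.58.1 in R 4.3.3 (two-sided, Benjamini-Hochberg over 30009 features, called under 0.05, no covariates; checked on simulated data). Fold changes are Klf4 minus control. For Ltb, Fas, Map3k5 and Esam, the fold given sets the Klf4 mean against a control mean with a floor on each array. The floor, used where higher than the probe's own signal, is the dimmest signal flagged well above background there. These folds make no allowance for spread and are not lower bounds. The normexp differences of Ltb, Fas and Map3k5 were smaller. Precision is limited by there being 4 arrays a group.

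The named genes were the 8 ligands, the receptors of those ligands, the called genes of the other lists (at most 6 in each direction), and the genes nearest in pattern (5 for Tnfsf9, 3 for each other kept ligand; 1 of those for Tnfsf9 is not reported here), and Klf4; other genes of the lists, and Brcc3 and Tnfrsf18, were named after their values were seen. The alternatives were the array median, quantile normalization, normexp, no filter, the mean over probes, the authors' log2 values, replicate and scan blocks, the first scan, no arrays numbered 4, and each array left out. Normexp was run on median signals, since the files used here have no mean signal column. The ligands, lists and rules were chosen with earlier results of these data known.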

Additional observations from a re-analysis of the deposited data

Results flagged for a closer look

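Among the probes and genes named, 74 groups of 4 arrays were checked for an array far from the other 3, and 5 were found; chance gives about 1 in 20. Control replicate 5 was low for Tnfsf12 (2.72, against 3.49 to 3.55 on the other controls) and for Tnfrsf25 (-0.49, against 0.45 to 0.61). Control replicate 3 was high for the second Tnf probe (-5.26, against -7.24 on each) and for Anxa8 (-3.54, against -7.96 to -7.31). Klf4 replicate 4 was low for Ltb (-6.50, against -5.14 to -4.92).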

How the results depend on the processing

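The 18 alternatives left the direction of every called gene named here as it was; the calls lost are given beside each gene. The count of further ligands higher (1) was 0 with normexp and in the first scan alone. That of signalling genes higher (3) was 1 with normexp, with the replicate block, without both arrays numbered 4 and in the first scan. Over all features, 632 were higher and 47 lower in the first scan alone, 254 were lower with the scan block and 70 with no filter on dim probes. With single arrays left out, the ranges were 1 to 2 ligands higher, 0 to 1 further ligands, 3 to 3 receptors, 1 to 3 signalling genes, 604 to 1221 features higher and 32 to 406 lower. Differences near 0 changed sign without passing, and the cause was not tested. With single arrays left out, Tnfsf12 ranged from -0.12 to 0.26, Lta from -0.15 to 0.010, Tnfrsf13b from -0.19 to 0.052, Ltbr from -0.17 to 0.00017, Tnfsf14 from -0.32 to 0.077 and Klf4 from -0.15 to 0.54. Without both arrays numbered 4, Lta was 0.043, Tnfrsf13b 0.043 and Tnfsf14 0.088. Tnfrsf13b was 0.0040 with the array median, 0.0054 with quantile normalization and 0.0025 with the authors' values, and Ltbr 0.020 in the first scan. The share of calls that were higher was 87.4%, and over the 18 alternatives it ran from 75.05% without Klf4 replicate 4 to 95.3% without control replicate 2. The deviations of same-numbered arrays correlated at 0.36, 0.24, 0.06 and 0.55 for numbers 2 to 5, and the labels tie the numbers to nothing, so they were not taken as pairs; with the replicate block 842 features were higher and 101 lower, and the calls of Tradd and Map3k5 were lost. Dim signals limit Tnf, Tnfsf10, Tnfsf11 and Tnfsf15 most.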
